A study of Mus musculus with 2 samples.

Results

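A group of 6 subunits of the GABA-A receptor and a pair of chloride cotransporters were followed across 2 areas of the embryonic mouse brain. The 8 genes were Gabra2, Gabra3, Gabra4 and Gabra5 (alpha subunits), Gabrb1 and Gabrb2 (beta subunits), Slc12a2 (NKCC1) and Slc12a5 (KCC2). They were chosen by name, with earlier results of these data known, and are 8 of the 24411 genes listed in the gene counts. The subventricular zone (SVZ), a germinal layer next to the lateral ventricle, and the cortex were cut by Laser Capture Microdissection (LCM), in which a laser excises chosen areas of a stained section, from fresh-frozen brain at embryonic day 16.5, and each area gave 1 RNA-seq library. Per the labels and the study's methods the embryos carried no named allele or treatment, and neither names the strain, the sex or how many embryos lie behind a library. In the study these libraries served as a benchmark for a method that barcodes molecules in tissue by light.

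GABA-A receptors are chloride channels built of several subunits, usually a pair of alphas, a pair of betas and a gamma or delta, and the alpha and beta types present set their sensitivity to GABA, their kinetics and their drug response. Whether an open channel excites or inhibits a cell depends on the chloride gradient across its membrane. NKCC1 carries chloride into cells and KCC2 carries it out, and in young neurons, where NKCC1 prevails, GABA is depolarizing. In the embryonic brain GABA also acts on dividing progenitors and on migrating neurons.

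Gene-assigned reads numbered 51435667 for SVZ and 22050693 for cortex. Levels are shares of gene-assigned reads, written as CPM (counts per 1000000 reads), where a single read equals 0.0194 CPM in SVZ and 0.0453 CPM in cortex. Each ratio of SVZ to cortex has an exact (Clopper-Pearson) 95% interval, given in brackets, which covers counting error only and treats reads as independent. PCR copies of a molecule are not independent, so that the intervals can be too narrow. With 1 library per area there is no replicate check and no test between the areas, and 86.8% of the 12738 genes whose mean reached 1 CPM had an interval that left out equal CPM, so that the size of a ratio is reported rather than its distance from counting error. The markers matched the labelled areas. All 10 apical progenitor genes (summed CPM 6730 in SVZ and 149 in cortex) and all 8 intermediate progenitor genes (1508 and 260 CPM) were higher in the SVZ library. All 10 neuronal genes were higher in the cortex library (3780 and 10860 CPM). Of the 12738 genes, 54.9% were higher in SVZ and 45.1% in cortex. In such bulk samples fewer cells of a type and less RNA per cell cannot be told apart.

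Of the 8 genes, 7 were at least 2-fold apart between the areas, and they went both ways. Gabra2, Gabra3, Gabra5, Gabrb2 and Slc12a5 were at least 2-fold higher in cortex, as were 15.6% of the 12738 genes. Gabra4 and Gabrb1 were at least 2-fold higher in SVZ, as were 20.0% of the 12738 genes. Slc12a2 was within 2-fold. Past 4-fold were Gabra3, Gabra5 and Gabrb2 in cortex, against 7.01% of all genes, and none of the 8 in SVZ, against 10.2% of all genes. Slc12a5 joined them, making 4 in cortex, under TMM, DESeq2 and upper-quartile scaling. The median log2 ratio of the 8 was -1.68, and that of the 12738 genes 0.11.

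**Figure D1:**
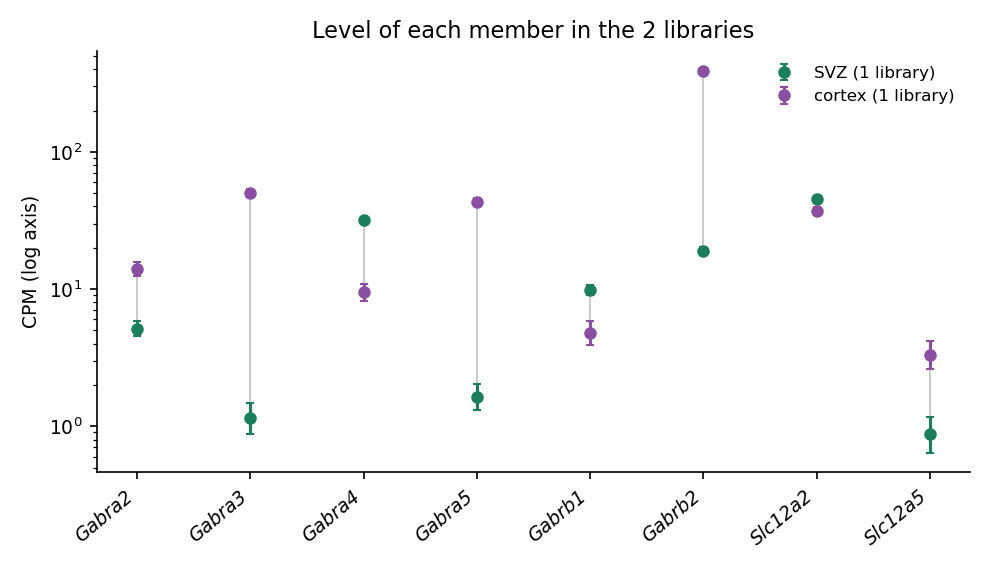
Level of each of the 8 genes in the SVZ library (green) and the cortex library (purple), in CPM on a log axis, with exact 95% Poisson intervals of the read count. The widest gaps are those of Gabra3 (1.15 and 50.5 CPM), Gabra5 and Gabrb2, each higher in cortex, and the points of Slc12a2 lie next to each other at 45.2 and 37.0 CPM.

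**Figure D2:**
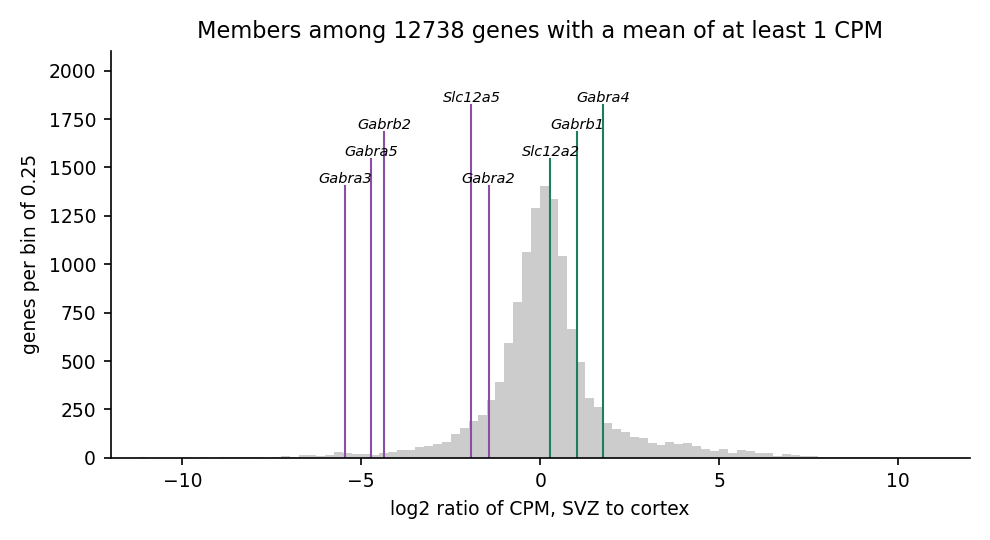
Number of genes per bin of 0.25 of the log2 ratio of SVZ to cortex CPM, over the 12738 genes whose mean reached 1 CPM, with the 8 genes as vertical lines (green, higher in SVZ, and purple, higher in cortex). Gabra3, Gabra5 and Gabrb2 lie in the thin left tail, and Slc12a2 lies in the bulk of the distribution.

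Among the alpha subunits, Gabra3 and Gabra5 had most of their level in cortex and Gabra4 leaned to the SVZ. Gabra3, a subunit of receptors abundant in the developing forebrain, had 59 reads in SVZ (1.15 CPM) and 1113 reads in cortex (50.5 CPM). Its level was 44.0-fold higher in cortex (33.9 to 58.2, log2 ratio -5.46), and 1.04% of the 12738 genes had a lower ratio. Gabra5, best known for extrasynaptic receptors of the hippocampus that carry tonic inhibition, had 84 reads in SVZ (1.63 CPM) and 948 in cortex (43.0 CPM). It was 26.3-fold higher in cortex (21.0 to 33.3, log2 ratio -4.72), and 1.55% of genes had a lower ratio. Its exons overlap those of Gm9962 on the opposite strand, and reads there are left out of these counts. Gabra2, a subunit enriched at the axon initial segment of mature principal cells, differed less. It had 265 reads in SVZ (5.15 CPM) and 309 in cortex (14.0 CPM), 2.72-fold higher in cortex (2.30 to 3.22, log2 ratio -1.44).

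Gabra4, a partner of the delta subunit in extrasynaptic receptors of the adult forebrain, ran the other way. It had 1631 reads in SVZ (31.7 CPM) and 208 in cortex (9.43 CPM). Its level was 3.36-fold higher in SVZ (2.91 to 3.90, log2 ratio 1.75), and 11.6% of genes had a higher ratio. Gabra4 and Gabrb1 were the 2 of the 6 subunits that were higher in the progenitor area. Delta itself, Gabrd, had 0 reads in SVZ and 54 in cortex (2.45 CPM). With the SVZ count set at a floor of 3 reads (0.0583 CPM) it was 42.0-fold higher in cortex. Its exact interval, taken from the counts without that floor, started at 33.0-fold. Gabra6, an alpha subunit of cerebellar granule cells, had 0 reads in either library.

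The beta subunits split in the same manner. Gabrb2, a beta subunit abundant in the adult brain (chr11:42419757-42629028, plus strand, GRCm38), had the most reads of the 8 genes in cortex and fewer than Slc12a2 and Gabra4 in SVZ. It had 970 reads in SVZ (18.9 CPM) and 8535 in cortex (387 CPM), 20.5-fold higher in cortex (19.2 to 22.0, log2 ratio -4.36). Gabrb1 had 508 reads in SVZ (9.88 CPM) and 106 in cortex (4.81 CPM), 2.05-fold higher in SVZ (1.66 to 2.56, log2 ratio 1.04). Gabrb1 lay on the edge of the 2-fold line, and it fell below that line when scaled by TMM, by DESeq2 size factors or by the upper quartile. The reads of Gabrb2 were 1.91 times those of Gabrb1 in the SVZ library (1.71 to 2.13) and 80.5 times in the cortex library (66.5 to 98.5). This ratio is taken within a library and does not depend on the scaling between them.

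Divided by gene length, the alpha genes had a different leader in each area. Shares are taken among Gabra2, Gabra3, Gabra4 and Gabra5 alone, in reads per kb of merged exons, so that genes can be compared within a library. Gabra4 made 77.5% of their reads per kb in SVZ and 5.05% in cortex. In cortex Gabra5 (47.1%) and Gabra3 (41.9%) made most of the sum, against 8.16% and 4.34% in SVZ. Per kb of coding sequence Gabra3 (40.3%) and Gabra5 (39.5%) of cortex were close to equal, so that their order rests on the length used. Gabra2 made 10.0% in SVZ and 5.97% in cortex, but without length correction (13.0% and 12.0%) and by coding length (15.9% and 13.2%) its shares were closer to each other. Between the beta genes, Gabrb2 made 80.6% and Gabrb1 19.4% of their summed reads per kb in SVZ. In cortex Gabrb2 made 99.4% and Gabrb1 0.568%, so that Gabrb2 led in both areas. By coding length Gabrb1 made 36.1% in SVZ and 1.32% in cortex.

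**Figure D3:**
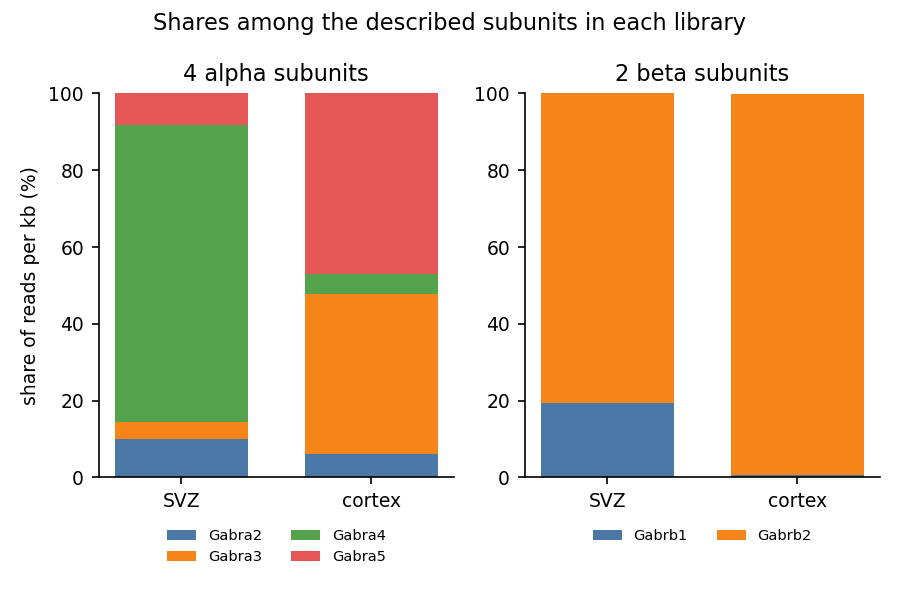
Share of each gene among the 4 alpha subunits and among the 2 beta subunits described, in the SVZ and cortex libraries (1 library each), as percent of their summed reads per kb of merged exons. Gabra4 fills most of the SVZ alpha bar (77.5%) and Gabra5 with Gabra3 most of the cortex bar, while Gabrb2 fills most of the beta bar of both areas.

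Over 16 genes of the receptor family, the 6 subunits included, 7 had a mean of at least 1 CPM, of which 5 were at least 2-fold higher in cortex and 2 at least 2-fold higher in SVZ (all genes, 15.6% and 20.0%). The gene added to the 6 subunits is Gabrd. The median log2 ratio of these 7 was -4.36, with Gabrd taken at the floor. Gabrd reached the minimum (mean 1.22 CPM) by its cortex reads alone. Of the genes with reads under the minimum, Gabrg3 (mean 0.995 CPM), Gabrg1 (0.836) and Gabrr2 (0.434) had log2 ratios above 0. Gabrq (0.771) had one below 0. The counts and median of the 7 therefore depend on the minimum. Genes of the family with few reads lay on either side. Gabrg3 had 72 reads in SVZ and 13 in cortex (2.37-fold higher in SVZ, 1.30 to 4.67), whereas Gabrg1 (51 and 15 reads, log2 ratio 0.54, -0.31 to 1.48) and Gabrr2 (26 and 8 reads, log2 ratio 0.48, -0.71 to 1.83) could not be told from equal CPM at this depth. Gabrq, the theta subunit, had 0 reads in SVZ and 34 in cortex, 26.4-fold higher in cortex with the same floor (exact interval from 20.4-fold). The 5 genes Gabra6, Gabre, Gabrp, Gabrr1 and Gabrr3 had 0 reads in both libraries. The 10 neuronal markers had log2 ratios from -4.29 to -0.32, with a median of -1.92. Whether the share of neurons in each cut area sets the ratios of these genes was not tested.

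Receptor subunit genes sit in clusters in the mouse genome, here defined as neighbours less than 1 Mb apart, and neighbours did not always share a direction. On chromosome 5 the cluster runs Gabrg1, Gabra2, Gabra4, Gabrb1 (GRCm38, GENCODE M21). In it Gabra2 (chr5:70957597-71095849, minus strand) was higher in cortex, while Gabra4 (chr5:71569749-71658308, minus strand) and Gabrb1 (chr5:71658113-72149037, plus strand) were higher in SVZ. The 4 genes together had 47.7 CPM in SVZ and 28.9 CPM in cortex (log2 ratio 0.72, 0.60 to 0.85), a sum carried by Gabra4. On chromosome 7 Gabrg3 leaned to SVZ beside Gabra5 (chr7:57407672-57510059, minus strand), which lies 20483 bases from it and was higher in cortex. On the X chromosome Gabra3 (chrX:72432681-72656848, minus strand) and Gabrq were both higher in cortex, and Gabre had no reads.

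**Figure D4:**
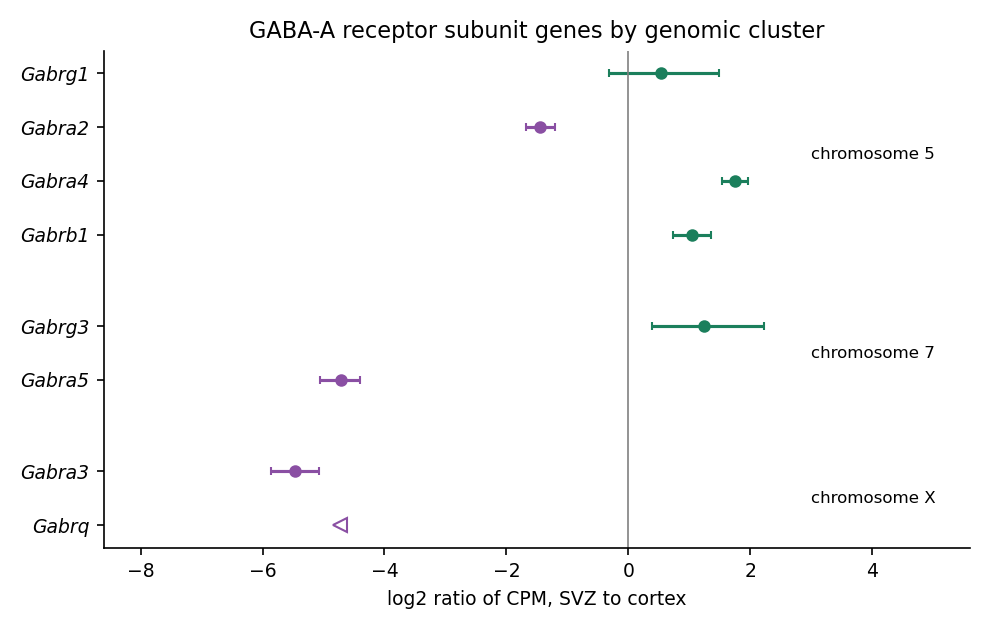
Log2 ratio of SVZ to cortex CPM of the GABA-A receptor subunit genes named here, with at least 10 reads, that lie near each other on chromosomes 5, 7 and X, in chromosomal order, with exact 95% counting intervals. The open triangle (Gabrq) is a bound for a gene with 0 reads in SVZ. Gabra4, Gabrb1 and Gabrg3 lie right of 0 with intervals that leave it out, Gabrg1 lies right of 0 with an interval that spans it, and the other genes lie left.

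Gabra4 and Gabrb1, the 2 subunits higher in SVZ, start head to head. Their RefSeq start sites lie 387 bases apart on opposite strands and their GENCODE spans share 196 bases. Counting the strands apart added 0 reads in SVZ and 1 read in cortex to each, so that the shared bases hold almost none of their reads. RefSeq promoters (250 bases before to 50 after a start, GRCm38.p6) were found for 7 of the 8 genes. Of 12 windows of these 7 genes, 4 are shown: those at the head-to-head starts of Gabra4 and Gabrb1, the first of Gabrb2, which holds a TATA box, and that of the downstream start of Slc12a5, which holds an E box. Windows at other starts of Gabrb1, Gabrb2 and Slc12a5 are not shown. Capitals mark matches, on either strand, to the TATA box TATAAA, the GC box GGGCGG and the E box CACGTG, which occur in 13.6%, 35.7% and 7.15% of all 32851 promoter windows of this length.
Gabra4, chr5:71658259-71658558, minus strand: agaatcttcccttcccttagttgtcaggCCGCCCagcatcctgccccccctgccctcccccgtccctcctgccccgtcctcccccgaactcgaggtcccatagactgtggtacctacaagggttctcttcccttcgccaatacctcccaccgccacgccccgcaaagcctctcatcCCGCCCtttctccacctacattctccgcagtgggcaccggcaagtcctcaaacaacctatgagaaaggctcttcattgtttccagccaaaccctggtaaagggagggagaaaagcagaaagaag
Gabrb1, chr5:71657671-71657970, plus strand: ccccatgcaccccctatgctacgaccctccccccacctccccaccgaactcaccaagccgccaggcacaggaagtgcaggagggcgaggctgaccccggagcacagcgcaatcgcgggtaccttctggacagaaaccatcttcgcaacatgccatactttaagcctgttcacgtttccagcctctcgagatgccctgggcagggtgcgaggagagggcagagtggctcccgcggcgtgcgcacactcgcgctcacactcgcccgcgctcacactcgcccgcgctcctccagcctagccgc
Gabrb2, chr11:42420190-42420489, plus strand: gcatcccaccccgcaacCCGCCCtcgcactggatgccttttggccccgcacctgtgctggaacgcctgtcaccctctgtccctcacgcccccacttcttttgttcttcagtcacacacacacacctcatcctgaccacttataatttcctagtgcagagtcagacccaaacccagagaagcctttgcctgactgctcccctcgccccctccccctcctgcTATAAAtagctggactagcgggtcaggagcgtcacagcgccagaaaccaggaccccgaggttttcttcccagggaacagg
Slc12a5, chr2:164967738-164968037, plus strand: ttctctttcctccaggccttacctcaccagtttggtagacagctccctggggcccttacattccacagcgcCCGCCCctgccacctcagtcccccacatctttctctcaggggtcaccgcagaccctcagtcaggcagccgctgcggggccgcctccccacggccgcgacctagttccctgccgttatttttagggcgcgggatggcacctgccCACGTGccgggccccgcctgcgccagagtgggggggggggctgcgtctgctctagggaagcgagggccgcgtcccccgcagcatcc
Counted from the start site, the Gabra4 window has GC boxes at -222 and -74, both read on the opposite strand. The window of Gabrb1 shown has none of the 3 motifs and 25 CpG pairs, where the median over all promoters was 7. That of Gabra2, a gene higher in cortex, also has 25. The Gabrb2 window shown has a TATA box at -30 and a GC box at -233. In that of Slc12a5 there is an E box at -36 and a GC box at -179. Windows not shown held matches too. The windows of Gabra3 overlap, and the same TATA box letters, on the opposite strand, lie in both (-235 and -123). GC boxes occur in the window of Gabra2 (-205 and 6) and the first of Slc12a5 (24). A match describes the letters of a window and is no evidence of a bound factor. Both of the overlapping windows of Gabra3, the gene with the widest difference, held 0 CpG pairs.

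The chloride cotransporters differed from each other. Slc12a2 (NKCC1, chloride import) had 2323 reads in SVZ (45.2 CPM) and 816 in cortex (37.0 CPM), 1.22-fold higher in SVZ (1.13 to 1.32, log2 ratio 0.29). It lies at chr18:57878678-57946821 on the plus strand, and 42.3% of the 12738 genes had a higher ratio. Slc12a5 (KCC2, chloride export, at chr2:164960802-164999731 on the plus strand) had 45 reads in SVZ (0.875 CPM) and 73 in cortex (3.31 CPM). It was 3.78-fold higher in cortex (2.57 to 5.61, log2 ratio -1.92), on the lowest counts of the 8 genes. Within each library, NKCC1 reads exceeded KCC2 reads. There were 51.6 Slc12a2 reads for each Slc12a5 read in SVZ (38.5 to 71.0) and 11.2 in cortex (8.79 to 14.4). The ratio of Slc12a5 to Slc12a2 was therefore 4.62 times as high in cortex (3.11 to 6.91), a comparison that needs no scaling between the libraries. Per kb of merged exons the ratio of Slc12a5 to Slc12a2 was 0.0284 in SVZ and 0.131 in cortex.

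Other members of the cotransporter family lay on both sides. Of 8 genes of the family, Slc12a2 and Slc12a5 included, 5 had a mean of at least 1 CPM. Of these, 3 were higher in SVZ and 2 in cortex (all genes, 54.9% and 45.1%), with a median log2 ratio of 0.29. Slc12a5 reached the minimum by its cortex level alone (0.875 CPM in SVZ and 3.31 in cortex). Slc12a8 (mean 0.953 CPM) fell just short of it, so that these counts and the median depend on the minimum. Slc12a7 (KCC4) had 659 reads in SVZ (12.8 CPM) and 36 in cortex (1.63 CPM), 7.85-fold higher in SVZ (5.61 to 11.3). These potassium-chloride exporters thus lay on both sides, KCC4 in SVZ and KCC2 in cortex. Slc12a4 (KCC1) had 212 and 61 reads (log2 ratio 0.58, 0.16 to 1.01), and Slc12a9 had 117 and 97 reads (log2 ratio -0.95, -1.35 to -0.55). Slc12a8 had 98 reads in SVZ and 0 in cortex, 14.0-fold higher in SVZ with a floor of 3 reads (exact interval from 11.2-fold). The remaining 2 genes had under 10 reads in each library.

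Ranked by CPM per kb of merged exons, the 8 genes ran in SVZ from Gabra4 (5.21) through Slc12a2 (4.14), Gabrb2 (2.97), Gabrb1 (0.714), Gabra2 (0.674), Gabra5 (0.549) and Gabra3 (0.292) to Slc12a5 (0.117). Within it the neighbours Gabrb1 and Gabra2 (ratio 1.06, 0.91 to 1.23) and Gabra2 and Gabra5 (ratio 1.23, 0.957 to 1.59) did not differ beyond counting error. In cortex the order ran from Gabrb2 (60.9) through Gabra5 (14.5), Gabra3 (12.9), Slc12a2 (3.39), Gabra2 (1.83), Gabra4 (1.55) and Slc12a5 (0.445) to Gabrb1 (0.347). There Gabra2 and Gabra4 (ratio 1.18, 0.989 to 1.42) and Slc12a5 and Gabrb1 (ratio 1.28, 0.937 to 1.74) did not differ beyond counting error. Gabra4 moved from rank 1 in SVZ to rank 6 in cortex and Gabra3 climbed from rank 7 to rank 3, whereas Slc12a5 stayed within the last 2 ranks of both libraries.

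Of the kinases and partners of the cotransporters, all 10 had a mean of at least 1 CPM, 3 were at least 2-fold higher in cortex (all genes, 15.6%) and 0 in SVZ (all genes, 20.0%), and the median log2 ratio was -0.27. With a minimum of 10 CPM the number in cortex was 2 and the median moved to -0.05. Neto2, an auxiliary protein of KCC2 and of kainate receptors, had 45.5 CPM in SVZ and 333 in cortex (log2 ratio -2.87). Of the WNK kinases in the list, which sense chloride and switch NKCC1 on and KCC2 off, only Wnk1 was higher in SVZ. Wnk1 had 101 CPM in SVZ and 55.7 in cortex (log2 ratio 0.86), while Wnk3 (27.5 and 55.7 CPM) and Wnk4 (1.50 and 3.40 CPM) had log2 ratios of -1.02 and -1.18. Ckb, brain creatine kinase and a KCC2 partner, was the most abundant of the list (536 and 341 CPM, log2 ratio 0.65).

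Other routes of chloride and bicarbonate, which also passes GABA-A channels, included 8 genes that reached a mean of 1 CPM, 3 at least 2-fold higher in SVZ (all genes, 20.0%) and 1 in cortex (all genes, 15.6%), with a median log2 ratio of 0.18. With a minimum of 10 CPM, 1 was at least 2-fold higher in SVZ and the median turned to -0.84. The sodium bicarbonate cotransporter Slc4a4 (10.6 and 2.63 CPM, log2 ratio 2.01), the anion exchanger Slc4a2 (6.05 and 1.59 CPM, log2 ratio 1.93) and carbonic anhydrase Car2 (24.0 and 10.2 CPM, log2 ratio 1.24) were higher in SVZ. The neuronal bicarbonate transporter Slc4a10 was higher in cortex (8.85 and 33.1 CPM, log2 ratio -1.90), as was the most abundant gene of the list, the vesicular exchanger Clcn3 (146 and 262 CPM, log2 ratio -0.84).

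For GABA itself, 5 genes of synthesis, uptake and breakdown reached a mean of 1 CPM, 2 of them at least 2-fold higher in SVZ (all genes, 20.0%) and 0 in cortex (all genes, 15.6%), with a median log2 ratio of 0.48, and with a minimum of 10 CPM the number in SVZ was 1. Abat, the GABA transaminase, had 17.9 CPM in SVZ and 2.68 in cortex (log2 ratio 2.74). The GABA uptake transporter Slc6a11 (4.76 and 1.50 CPM, log2 ratio 1.67) was also higher in SVZ. The synthetic enzymes Gad1 (16.6 and 11.9 CPM, log2 ratio 0.48) and Gad2 (28.1 and 21.6 CPM, log2 ratio 0.38) were within 2-fold, as was Aldh5a1, which completes GABA breakdown (11.6 and 17.8 CPM, log2 ratio -0.62). The interneuron markers were divided, with 7 of 10 genes higher in SVZ (all genes, 54.9%). Their summed level was 180 CPM in SVZ and 525 in cortex, of which Npy alone made 14.3 and 379.

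Among 18 genes that anchor or traffic the receptor, 5 were at least 2-fold higher in cortex (all genes, 15.6%) and 1 in SVZ (all genes, 20.0%), and the median log2 ratio was -0.44. With a minimum of 10 CPM the number in cortex was 3. The receptor-associated Shisa7 (5.33 and 23.0 CPM, log2 ratio -2.11), the adhesion protein Slitrk3 of inhibitory synapses (3.97 and 13.5 CPM, log2 ratio -1.76), Plcl2 (11.5 and 36.2 CPM, log2 ratio -1.66) and Iqsec3 (1.61 and 4.76 CPM, log2 ratio -1.56) were higher in cortex. The most abundant were Rdx, radixin, which holds alpha 5 receptors outside synapses (466 and 208 CPM, log2 ratio 1.16), and Ubqln1 (232 and 325 CPM, log2 ratio -0.49). Rdx was thus higher in the area where Gabra5 was lower. Of the other inhibitory receptors, all 4 GABA-B and glycine receptor genes that reached a mean of 1 CPM were higher in cortex (all genes, 45.1%). They were Gabbr2 (9 and 79 reads, log2 ratio -4.36), Glra2, the embryonic glycine receptor alpha (9.92 and 86.8 CPM, log2 ratio -3.13), Gabbr1 (30.5 and 82.2 CPM, log2 ratio -1.43) and Glrb (64.1 and 113 CPM, log2 ratio -0.82). Gabbr2 reached that minimum by its cortex level alone (0.175 CPM in SVZ and 3.58 in cortex). Glra1, under that minimum, had 24 reads in SVZ and 0 in cortex. With a minimum of 10 CPM the median log2 ratio of the list moved from -2.28 to -1.43.

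**Figure D5:**
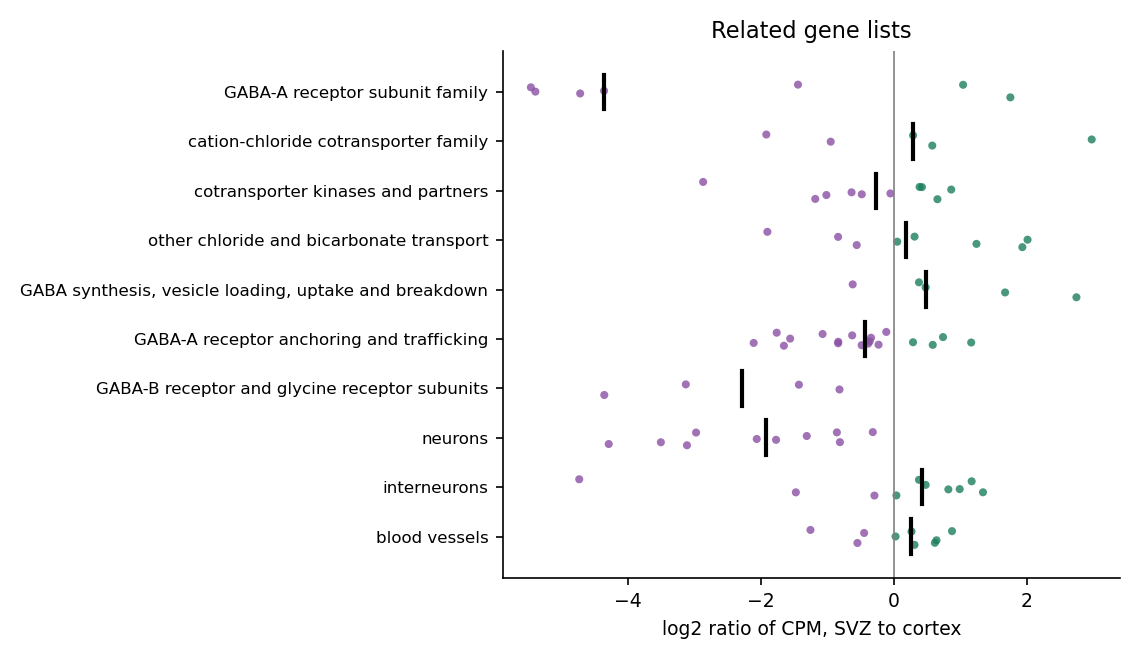
Log2 ratio of SVZ to cortex CPM of each gene with a mean of at least 1 CPM in the receptor and cotransporter family lists, 5 related lists and 3 marker lists (vertical bars, list medians; green points, higher in SVZ, and purple, higher in cortex; vertical scatter within a list carries no value). The GABA-A receptor list has its median at -4.36, the cotransporter list at 0.29 and the GABA synthesis and uptake list at 0.48. The receptor list includes Gabrd, which reached the minimum by its cortex reads alone.

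Markers of some other cells differed between the areas as well. Choroid plexus genes summed to 246 CPM in SVZ and 0.907 in cortex, carried by Ttr (240 and 0.726 CPM), with Folr1, Clic6 and Otx2 at 0 reads in cortex and Kl at 0 reads in both libraries. Microglial genes summed to 63.9 and 8.44 CPM, all 8 higher in SVZ (all genes, 54.9%), with P2ry12 and C1qb the most abundant. Blood vessel genes (156 and 118 CPM) and oligodendrocyte precursor genes (12.1 and 12.0 CPM) differed little in sum. Slc12a2 and Slc12a7 are also known in choroid plexus, and the part of these cells in their SVZ levels was not tested.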

How the data were processed

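Per the study's methods, RNA of each area went into cDNA libraries made with a kit for low input. The authors trimmed adapters (cutadapt 4.1), aligned read 1 of each pair to mm10 and counted reads per gene with STAR 2.7.9a. The deposited values are raw counts, in 1 unstranded and 2 stranded columns per library. STAR drops reads that map to several places or to more than 1 gene, so overlapping genes are undercounted. A deposited merged table with the authors' CPM and ratios was not used. Removal of duplicates is not stated.

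CPM was computed from the unstranded counts over gene-assigned reads. Ratios with a count of 0 used 3 reads in its place, while their exact intervals used the count of 0. Genes with at most 3 reads in each library got no ratio. With 1 library per area no p-value was computed. Intervals were exact at 95%, and the procedures were tested on simulated data. The 8 genes and all lists were chosen with earlier results of these data known. Some family and list genes are not reported here and were left out of the lists after the analysis. Named are the 8 genes, family genes with at least 10 reads in a library, and of each related list the 2 most abundant genes and the 4 with the largest log2 ratios. Lengths came from GENCODE M21 (GRCm38) and promoters from RefSeq. Alternatives were scaling by DESeq2 1.42.0 size factors or by TMM or the upper quartile (edgeR 4.0.16), leaving the 10 most counted genes out of the totals, summed stranded counts, a pseudocount of 1 CPM, other minimum levels and other lengths. Python 3.11.15, scipy 1.17.1 and R 4.3.3 were used.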

Additional observations from a re-analysis of the deposited data

Results flagged for a closer look

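The stranded count columns, which the comparisons did not use, held reads that the unstranded column leaves out where genes overlap, more than 3 reads in a library for 5 of the 75 genes examined. Among the 8 genes that was Gabra5, which gained 4 reads in SVZ and 110 in cortex, with exons that overlap Gm9962 on the opposite strand. The others were Gabarapl1 (339 and 261 reads), Clcn2 (42 and 16), Aldh5a1 (38 and 34) and Wnk3 (4 and 5). The library kit's strand setting was not used. The stranded columns had near-equal totals in each library (26155781 and 26526626 reads in SVZ, 11191789 and 11339083 in cortex). The strand of a read therefore does not tell to which gene of an overlapping pair it belongs, and this was not tested.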

How the results depend on the processing

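Each of the 8 log2 ratios kept its direction under 4 other scalings, the summed stranded counts and a pseudocount of 1 CPM, and 44 of 48 recomputed values stayed within their counting interval. With the pseudocount, which pulls low levels together, Gabra3 moved to -4.58, Gabra5 to -4.06 and Slc12a5 to -1.20, and upper-quartile scaling moved Gabrb2 to -4.46. Scaling moved all log2 ratios by -0.03 to -0.10. Genes at least 2-fold higher in SVZ numbered 1, Gabra4 alone, under TMM, DESeq2 size factors, upper-quartile scaling and the pseudocount. The share of all genes at least 4-fold higher in SVZ was 6.75% with a minimum mean of 10 CPM. Per kb of merged exons the ratio of Slc12a5 to Slc12a2 was 0.0284 in SVZ and 0.131 in cortex. By longest transcript 2 of the 8 genes changed rank in SVZ, and by coding length 6 did in cortex. Without length correction Gabra4 made 80.0% of the alpha reads of SVZ and Gabra3 43.2% and Gabra5 36.8% of those of cortex, where the leader turned from Gabra5 to Gabra3, and by coding length Gabra3 made 40.3% and Gabra5 39.5% of those of cortex. With a minimum mean of 10 CPM the median of the other chloride and bicarbonate genes turned to -0.84. No paired analysis was possible because SVZ and cortex are single libraries, and none could be left out. Counts limit Slc12a5 most, and PCR duplication was not measured.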
